A study of Homo sapiens with 3 samples.

Results

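RUNX1-IT1, MIR17HG, H19, MALAT1, NEAT1, GAS5, SNHG1, TUG1 and HULC, 9 long noncoding RNA genes, were followed in Huh7 cells, a human hepatoma line, treated with chlorogenic acid (CA), a polyphenol of plants. The genes were chosen by name, and RUNX1-IT1 was selected on its measured rise on these same arrays, so its ratios are given as a description. Of the 9 genes, 7 had a probe on the array, with 1 probe each, among 19740 named genes and 1034 genes that RefSeq classes as lncRNA. NEAT1 and TUG1 matched no probe through the accessions used and were not analysed here. The 3 groups were untreated cells, which received the DMSO vehicle according to the methods, and cells given CA 50 μM or CA 100 μM for 24 h, all of the same line. Total RNA of each group was hybridised to 1 one-colour array, so that no replicate spread exists, no test was run and every difference describes these 3 arrays. Both comparisons with untreated cells share the untreated array.

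Long noncoding RNAs are transcribed and often spliced like messenger RNAs, but they are not translated into a protein of known function. Some carry smaller RNAs: the introns of GAS5 and SNHG1 hold box C/D small nucleolar RNAs (snoRNAs), which guide the methylation of ribosomal RNA, and MIR17HG and H19 carry microRNA hairpins. Several act as the RNA itself, such as MALAT1 in nuclear speckles and NEAT1, the scaffold of paraspeckles. HULC is abundant in liver cancer, and H19 is an imprinted fetal RNA beside IGF2. RUNX1-IT1 is an intronic transcript of RUNX1, the gene of a transcription factor of blood and epithelial development.

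MIR17HG was included because it hosts a microRNA cluster that the study followed. The mature microRNAs of this cluster and of the sister cluster inside MCM7 are shown from RefSeq (GRCh38.p14), with the seed, bases 2 to 8, in capitals, because the shared seeds tie the host genes together. The first 4 have the seed AAAGUGC, which defines the miR-17 family, and 2 of them come from MIR17HG on chromosome 13 and 2 from MCM7 on chromosome 7.
hsa-miR-17-5p (MIR17HG): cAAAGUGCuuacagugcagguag
hsa-miR-20a-5p (MIR17HG): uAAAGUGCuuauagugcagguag
hsa-miR-93-5p (MCM7): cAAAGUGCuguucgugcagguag
hsa-miR-106b-5p (MCM7): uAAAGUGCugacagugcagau
hsa-miR-18a-5p (MIR17HG): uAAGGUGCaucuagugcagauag
hsa-miR-19a-3p (MIR17HG): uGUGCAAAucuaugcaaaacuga
hsa-miR-19b-3p (MIR17HG): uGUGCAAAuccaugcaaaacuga
hsa-miR-92a-3p (MIR17HG): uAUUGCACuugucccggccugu
hsa-miR-25-3p (MCM7): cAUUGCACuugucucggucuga
hsa-miR-675-5p (H19): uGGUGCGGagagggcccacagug
Read from the 5′ end, miR-17-5p and miR-20a-5p have the same base at 21 of 23 positions, miR-17-5p and miR-93-5p at 19 of 23, and miR-17-5p and miR-106b-5p at 18 of 21. The second seed shared by both hosts is AUUGCAC, in miR-92a-3p and miR-25-3p. H19 carries miR-675-5p, whose seed GGUGCGG occurs in none of the others shown.

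For RUNX1-IT1, the member with the largest ratios, the sequence around its annotated start is shown from RefSeq (GRCh38.p14, chr21:35039377-35039676, minus strand), 250 bases before and 50 after the start, with the motif TATAAA in capitals.
RUNX1-IT1: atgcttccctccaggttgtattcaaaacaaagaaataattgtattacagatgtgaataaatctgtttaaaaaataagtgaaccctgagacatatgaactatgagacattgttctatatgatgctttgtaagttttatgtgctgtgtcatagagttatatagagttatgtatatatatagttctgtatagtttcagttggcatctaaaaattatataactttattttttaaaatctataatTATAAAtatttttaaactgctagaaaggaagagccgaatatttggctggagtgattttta
The window holds 1 TATAAA, 10 bases before the start, and no CACGTG. Both motifs were searched on both strands, and 11.5% and 7.26% of the 35116 windows of this length in the table hold them. Its GC content was 27.0%, against a median of 58.7% over all windows, and 0.296% of the windows had a lower one. The window is AT-rich, as the table goes. These letters describe the annotated start, and the arrays did not measure where transcription began.

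RUNX1-IT1 was dim in untreated cells and brighter at both doses. Its processed signal, the background-subtracted brightness in arbitrary units, was 16.6 ± 3.1 in untreated cells, 45.9 ± 5.34 at CA 50 μM and 61.3 ± 6.81 at CA 100 μM, where ± is the error that the scanner software gives for the spot. The 3 values did not overlap within these errors. After each array was scaled to its 75th percentile, the log2 ratio over untreated cells was 1.28 ± 0.32 at CA 50 μM, a 2.43-fold increase, and 1.65 ± 0.31 at CA 100 μM, a 3.14-fold increase. Between the doses the log2 ratio was 0.37 ± 0.23.

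The untreated signal of RUNX1-IT1 was 1.36 times the lowest signal called well above background on that array, against 3.66 and 4.13 times on the treated arrays. Thus, the ratios start from a value close to the detection limit. Before any correction, the median pixel brightness of the spot was 76 on the untreated array, then 107 and 128 with rising dose, over a local background of 27, 29 and 32. In signal units, the CA 50 μM spot exceeded the untreated one by 29.3 ± 6.17 and the CA 100 μM spot by 44.8 ± 7.49. None of the 3 spots lay in a disturbed area, that is, a patch in which many dim spots were at least 4-fold brighter on 1 array. Another background correction, normexp on the median spot and local background signals, gave log2 ratios of 0.71 and 1.03 without an offset, so that only the CA 100 μM ratio stayed past 2-fold, and 0.24 and 0.40 with an offset of 50.

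**Figure D1:**
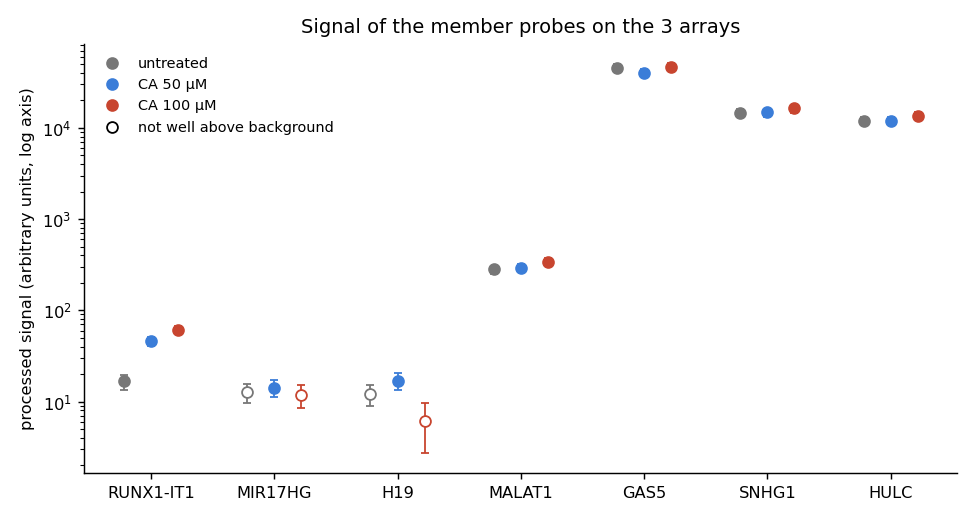
Processed signal (arbitrary units, log axis) of the 7 members with a probe, on the 3 arrays (grey, untreated; blue, CA 50 μM; red, CA 100 μM). Points are single arrays, bars the scanner's error and hollow points spots not well above background. RUNX1-IT1 went from 16.6 to 45.9 and 61.3, while GAS5, SNHG1, HULC and MALAT1 stayed near their untreated signal.

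Of the 5 members well above background on all arrays, 1, RUNX1-IT1, was at least 2-fold higher at each dose and 0 were lower. Over all genes compared, 0.463% were higher by 2-fold or more and 0.517% lower at CA 50 μM (68 and 76 of 14700), and the shares at CA 100 μM were 0.458% and 0.205% (67 and 30 of 14640). Since RUNX1-IT1 was selected on this rise, nothing is read from the member count. The counts past 2-fold in the gene lists below stand beside these same shares. With so few genes per list, a count of 0 lies near them and is not read as a result. Between the doses, 0 of the 5 members differed by 2-fold, beside 0.586% of 14666 genes higher and 0.0886% lower at CA 100 μM.

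RUNX1, in whose intron RUNX1-IT1 lies on the same strand, did not share the rise. Its brightest probe read 363 in untreated cells, 370 at CA 50 μM and 408 at CA 100 μM, with log2 ratios of -0.16 ± 0.20 and -0.07 ± 0.20. The second probe read 167, 148 and 175, with ratios of -0.37 ± 0.21 and -0.17 ± 0.21. The third read 62.0, 44.2 and 51.3, with ratios of -0.68 ± 0.23 and -0.51 ± 0.23. All 3 of these probes were below 0 at both doses, also under each of the 14 alternatives tried, whereas RUNX1-IT1 was above 0 under each of them. Several of these alternatives, such as those on filters, could hardly move a probe with 1 unflagged spot. The remaining 2 RUNX1 probes were near the detection limit and did not move alike. One read 13.9, 16.7 and 11.1, the last not well above background. The other read 7.92, 16.0 and 18.4, not well above background in untreated cells. Leaving out the scanner's error, this puts it at least 1.15-fold above untreated cells with CA 50 μM and at least 1.28-fold with CA 100 μM. A probe to intronic sequence would also read unspliced RNA of the host on the same strand, and RUNX1-IT1 and unspliced RUNX1 RNA cannot be told apart here.

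**Figure D2:**
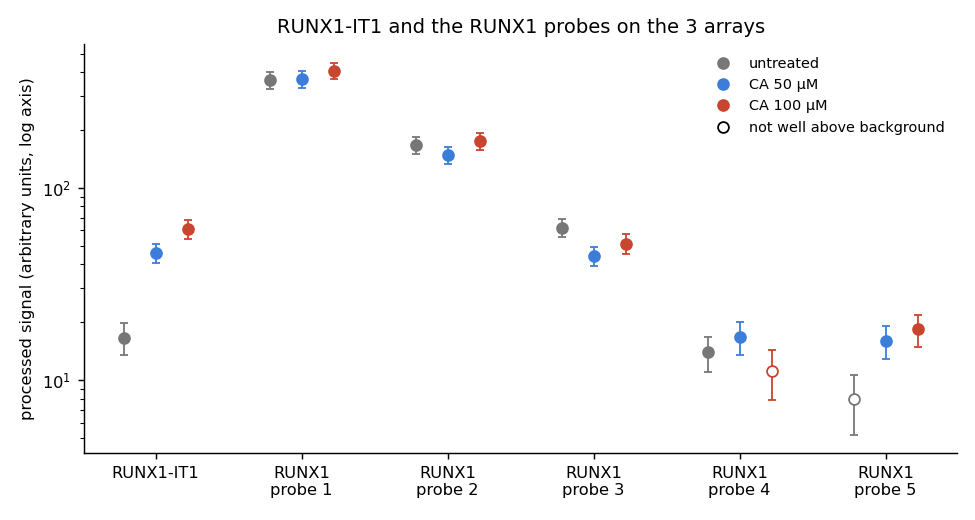
Processed signal (arbitrary units, log axis) of RUNX1-IT1 and of the 5 RUNX1 probes, ordered by untreated signal, on the 3 arrays. Bars are the scanner's error and hollow points spots not well above background. RUNX1 probe 1 reads 363, 370 and 408 and probe 3 reads 62.0, 44.2 and 51.3, whereas RUNX1-IT1 goes from 16.6 to 61.3.

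The other genes of the RUNX family list were also near their untreated level or undetected. CBFB, the shared subunit that stabilises RUNX proteins on DNA, had log2 ratios of -0.11 ± 0.07 and 0.02 ± 0.07, with spots in a disturbed area of the CA 100 μM array, whose part in the value was not tested. RUNX2, RUNX3 and RUNX1T1 stayed at background throughout. Of the genes beside RUNX1 in the table, SETD4, a protein methyltransferase gene, had ratios of 0.00 and -0.35 for its brighter probe and -0.14 and -0.01 for its dimmer one, and CLIC6 was not well above background.

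RUNX1-IT1 was then set beside the other intronic (-IT) transcripts on the array. Of 13 such genes, 9 were well above background on at least 1 array and 8 could be compared. RUNX1-IT1, which was selected on its rise, was the only one of the 8 at or above 2-fold, at either dose. ASAP1-IT1 followed, with signals of 19.9, 41.3 and 35.8 and a log2 ratio of 0.87 ± 0.29 at the lower dose and 0.61 ± 0.30 at the higher. Both probes of SND1-IT1 were above 0, at 0.60 and 0.73 with CA 50 μM, and at 0.40 each with CA 100 μM. BIN3-IT1 read 13.1, 22 and 16.9, with ratios of 0.56 ± 0.40 and 0.12 ± 0.43, which are close to their errors.

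Of the other 4 intronic transcripts, ERC2-IT1 lay near 0 and 3 were below it at both doses. ERC2-IT1 had ratios of 0.07 and 0.00, GABPB1-IT1 of -0.42 and -0.17, N4BP2L2-IT2 of -0.38 and -0.30, and ANP32A-IT1 of -0.22 and -0.30. ERC2-IT1 lay in a disturbed area of the CA 100 μM array, and its part in the value was not tested. The median of the 8 was 0.31 at the lower dose and 0.06 at the higher, beside -0.04 and -0.03 over all genes. The 8 include RUNX1-IT1, selected on its rise, so no shift of intronic transcripts as a group is read from these medians. Without the filter on dim spots, which brings in all 13 intronic transcripts, the medians were -0.22 and -0.17. Of the host genes with a ratio, 0 of 9 changed by 2-fold at CA 50 μM and 0 of 10 at CA 100 μM. The host without a ratio at CA 50 μM was AGPAT4, an acyltransferase gene, which read 31.6, 12.4 and 20.3 for its brightest probe, the second of these at background. Leaving out the scanner's error, this sets it at least 2.87-fold lower at CA 50 μM, and its log2 ratio at CA 100 μM was -0.87. KCNIP4-IT1 was well above background in untreated cells only, with signals of 15.2, 13.2 and 11.8, and AGPAT4-IT1, CPS1-IT1, FGF14-IT1 and MAPT-IT1 were at background on every array.

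**Figure D3:**
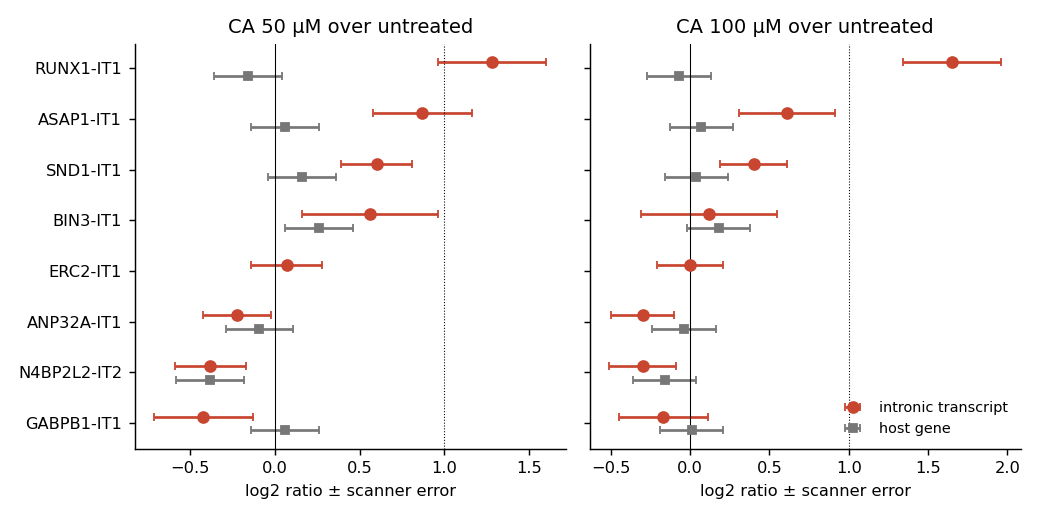
Log2 ratio over untreated cells of the 8 intronic transcripts compared (circles) and their host genes (squares, brightest probe, where measured), at CA 50 μM (left) and CA 100 μM (right). Bars are the scanner's error and the dotted line is 2-fold; RUNX1-IT1, at 1.28 and 1.65, lies beyond it in both panels.

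MIR17HG was at the limit of detection in all 3 groups. Its signal was 12.6 ± 2.95 in untreated cells, 14.2 ± 3.11 at the lower dose and 11.8 ± 3.27 at the higher, and only the CA 50 μM spot was well above background. The 3 values lie within their errors, so that a change of this host transcript was not detectable at this brightness. The array did not measure the mature microRNAs. Since the precursor is cut from the nascent host RNA, a host probe and the mature microRNA are separate readouts.

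MCM7, a subunit of the replicative helicase and the host of miR-93 and miR-106b, was bright. Its brighter probe read 15549, 19126 and 18134, with log2 ratios of 0.11 ± 0.20 and -0.02 ± 0.20. Its dimmer probe read 254, 466 and 466, with ratios of 0.68 ± 0.20 and 0.64 ± 0.20. The probes thus disagree in size, and neither reached 2-fold. In the list of this host and of genes that regulate or process the family, 0 of 11 changed by 2-fold, 7 were above 0 at CA 50 μM and 4 at CA 100 μM, with medians of 0.06 and -0.01. MYCN, a transcription factor gene, had ratios of 0.06 and 0.08, E2F1, a cell cycle factor gene with CA 100 μM spots in a disturbed area, of 0.20 and 0.10, and XPO5, the exporter of the hairpins, of 0.19 and 0.07 for its brightest probe. The lowest at CA 50 μM were E2F3, a transcription factor of the cell cycle, at -0.25 and -0.13 for its brighter probe, and DROSHA, the nuclease that cuts the hairpin from the primary transcript, at -0.24 and -0.05.

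H19 was also at background. It read 12.1 ± 3.15, 17 ± 3.47 and 6.17 ± 3.47, and only the CA 50 μM spot was well above background. Leaving out the scanner's error, this sets H19 at CA 50 μM at least 1.22-fold higher than in untreated cells. It likewise sets H19 at CA 100 μM at least 1.19-fold lower than at CA 50 μM. The untreated and CA 50 μM signals overlap within their errors, so that no difference is read between them. The CA 100 μM spot carried a local background flag, and its part in the value was not tested. No value is given for CA 100 μM over untreated cells, where both spots were dim.

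Genes around H19 differed in brightness. TNNT3 and INS-IGF2, on either side of H19 in the table, were not well above background on any of the 3 arrays. IGF2, the imprinted growth factor gene beside H19, read 96963, 92439 and 81687 with its brighter probe, with log2 ratios of -0.26 ± 0.20 and -0.49 ± 0.20. The CA 100 μM spot of this probe lay in a disturbed area, whose part was not tested. The dimmer IGF2 probe read 42.1, 63.5 and 51.5, with ratios of 0.40 ± 0.23 and 0.05 ± 0.24, so that the probes disagree in sign. MRPL23, a mitochondrial ribosomal protein gene that overlaps H19 in the table, had ratios of 0.26 and 0.26. KHSRP, an RNA-binding protein that promotes mRNA decay, read 8984, 13331 and 13912 with its brighter probe, at 0.38 and 0.39. Its other probe read 3.73, 36.9 and 23.5, the first of these at background. Leaving out the scanner's error, this puts it at least 2.65-fold above untreated cells with CA 50 μM and at least 1.64-fold with CA 100 μM. The size of the KHSRP difference thus depends on the probe. By the brightest probe of each gene, 0 of 8 in this partner list changed by 2-fold, 6 were above 0 at CA 50 μM and 7 at CA 100 μM, with medians of 0.11 and 0.13. Other imprinted noncoding genes did not reach 2-fold either (0 of 4). MEG3 read 1528, 2097 and 1705, at 0.27 and -0.08, and KCNQ1OT1, the antisense RNA of the KCNQ1 domain, read 2405, 2496 and 2872, at -0.14 and 0.02.

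As a group, the miRNA host genes were dim. Of 14 listed, 11 had a probe and 7 could be compared, with 0 changed by 2-fold and medians of 0.11 and 0.06. MIR22HG had ratios of 0.14 and 0.21, MIR600HG of 0.16 and 0.05, MIR503HG of -0.09 and -0.05 and MIR4435-2HG of 0.11 and 0.46. The probes of MIRLET7BHG disagreed in sign, at 0.88 and 0.51 for one and -0.30 and -0.58 for the other.

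GAS5, which accumulates when growth slows and is degraded by nonsense-mediated decay, was among the brightest probes of the array. Its signal was 45781 ± 4578 in untreated cells, 39914 at CA 50 μM and 46084 at CA 100 μM, brighter than 99.4% of probes in untreated cells. After scaling, the log2 ratios were -0.39 ± 0.20 and -0.23 ± 0.20. GAS5 was thus slightly lower relative to the array at both doses, by more than the scanner's error, though only narrowly at CA 100 μM. This error describes the spot and not the spread between cultures. SNHG1 read 14526, 14771 and 16325, with ratios of -0.17 ± 0.20 and -0.07 ± 0.20, within the error.

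The 2 members were read beside the other snoRNA host genes. Of 23 listed, 19 had a probe and 18 could be compared, and 0 changed by 2-fold at either dose. At CA 50 μM, 15 of the 18 lay below 0, with a median of -0.19, and at CA 100 μM 12 of 18, with a median of -0.07, beside -0.04 and -0.03 over all genes and -0.11 and -0.09 over all lncRNA probes compared. The CA 50 μM median was between -0.27 and -0.07 under the alternatives tried, and the CA 100 μM median turned to 0.02 with cyclic loess. The lowest at CA 50 μM were SNHG3 at -0.41, ZFAS1 at -0.40, SNHG7 (brighter probe) and GAS5, both at -0.39. DANCR was above 0, with signals of 12049, 16396 and 15942 and ratios of 0.26 and 0.17. SNHG29, the brightest, had ratios of -0.14 and -0.09, and SNHG5 of -0.16 and 0.03. The dimmer probe of SNHG7 went the other way, at 0.58 and 0.35.

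Brightness moved with this shift. Over all probes compared at CA 50 μM and ranked by signal into 5 equal classes, the median ratio was 0.03 in the dimmest class and -0.10 in the brightest, where the brightest snoRNA hosts lie. For lncRNA probes it was below 0 in every class, from -0.07 to -0.17, the last in the brightest. The part of brightness in the snoRNA host values was not tested.

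**Figure D4:**
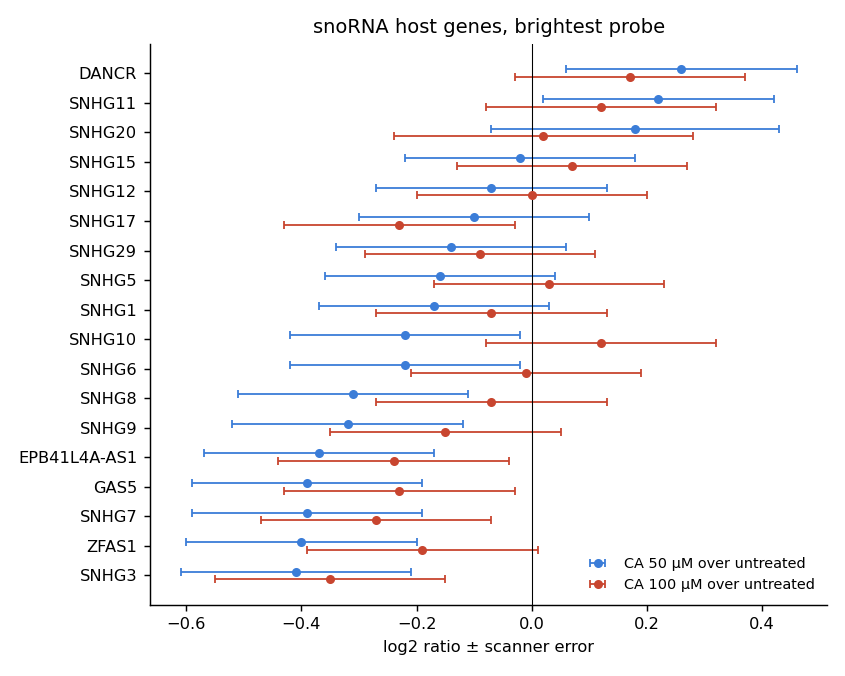
Log2 ratio over untreated cells of the 18 snoRNA host genes compared, at CA 50 μM (blue) and CA 100 μM (red), for the brightest probe of each gene, with the scanner's error as bars. At CA 50 μM 15 of 18 lie below 0, GAS5 at -0.39 and SNHG1 at -0.17, and none reaches 2-fold.

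Transcripts for proteins of the same pathways stayed near the array median. In the list of box C/D particle and nonsense-mediated decay genes, 0 of 16 changed by 2-fold, with medians of -0.02 and 0.01. FBL, the methyltransferase of the particle, had ratios of -0.25 and -0.13 (its CA 100 μM spot in a disturbed area). NOP56, a core protein, was at -0.23 and -0.08 for its brighter probe and 0.25 and 0.18 for its dimmer one. UPF1, the helicase of nonsense-mediated decay, was at -0.41 and -0.10. The genes on either side of SNHG1 in the table, WDR74 and SLC3A2, were above 0, at 0.36 and 0.45 for CA 50 μM and 0.19 and 0.24 for CA 100 μM. Beside GAS5, SERPINC1, the antithrombin gene, was at -0.30 and -0.22, with CA 100 μM spots in a disturbed area. The part of these areas was not tested.

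MALAT1 was near its untreated level. It read 280 ± 28.1 in untreated cells, 289 at CA 50 μM and 339 at CA 100 μM, with log2 ratios of -0.15 ± 0.20 and 0.04 ± 0.20. Its CA 100 μM spot lay in a disturbed area, whose part was not tested, and the ratio at CA 100 μM was -0.07 with normexp. The spread of these values is within the scanner's error.

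No probe of NEAT1 was read, but transcripts of its protein partners were. In the list of paraspeckle and nuclear speckle proteins, 0 of 20 changed by 2-fold, with medians of 0.04 and 0.02. NONO, a core paraspeckle protein, read 26721, 36173 and 35644, at 0.25 and 0.18, and its partner SFPQ was at -0.06 and 0.01. SRSF3, a splicing factor of nuclear speckles, was at -0.13 and -0.08 for its brighter probe and 0.05 and 0.03 for its dimmer one. FRMD8, beside the MALAT1 and NEAT1 genes in the table, was at -0.38 and -0.09 for its brighter probe.

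HULC was bright in all 3 groups. It read 12004 ± 1200, 11893 and 13437, brighter than 96.8% of probes in untreated cells, with log2 ratios of -0.20 ± 0.20 and -0.08 ± 0.20. In the list of noncoding RNAs described in liver and hepatoma, 13 of 20 could be compared and 0 changed by 2-fold. At each dose 11 lay below 0, with medians of -0.15 and -0.12. These are near the medians over all lncRNA probes compared, -0.11 and -0.09. LINC00261, an RNA beside FOXA2, was at -0.08 and -0.04, CYTOR at -0.21 and -0.17, and UCA1 read 3774, 3105 and 3995, at -0.47 and -0.16. Probes of NORAD disagreed, at 0.87 and 0.69 for the dimmer and -0.15 and -0.04 for the brighter. SLC35B3, next to HULC in the table, was at 0.07 and 0.06.

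Transcripts of the proteins through which noncoding RNAs act on chromatin had medians of -0.06 and 0.01. Among them 0 of 11 changed by 2-fold, which is near the shares over all genes given above. EZH2, the methyltransferase of polycomb complex PRC2, read 6385, 5861 and 6974, at -0.31 and -0.11, and SUZ12, its partner subunit, was at -0.10 and 0.00. HNRNPU, a nuclear scaffold protein, was at 0.10 and 0.14 for its brighter probe and -0.12 and -0.08 for its dimmer one.

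Noncoding probes as a class were dimmer than coding ones. Of 2136 probes with a noncoding (NR_) accession, 49.9% were well above background on all 3 arrays, against 72.5% of 24463 coding (NM_) probes. At CA 50 μM, 8 of 1095 NR_ probes compared were at least 2-fold higher and 8 lower (1.46%), beside 1.07% of 22471 probes in all. At CA 100 μM, 16 of 1077 were higher and 8 lower (2.23%), beside 0.894% of 22267 in all. Of these 16, 12 lay in a disturbed area, and 4 were left when those areas were removed. RUNX1-IT1 was not among the 12. RUNX1-IT1 lies in the dimmest of the 5 classes of all probes. There, 2.89% of all probes compared were past 2-fold at CA 50 μM and 3.37% at CA 100 μM. For NR_ probes of that class the shares were 2.65% and 5.57%. In the second class they were 1.27% beside 1.51% of all, and 1.65% beside 0.741%. In the third they were 1.44% beside 0.712%, and 0% beside 0.314%. The part of brightness in the NR_ shares was not tested. In the dimmest class, the median SD of the log2 ratio between spots of a probe printed 10 times was 0.218 and 0.220.

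**Figure D5:**
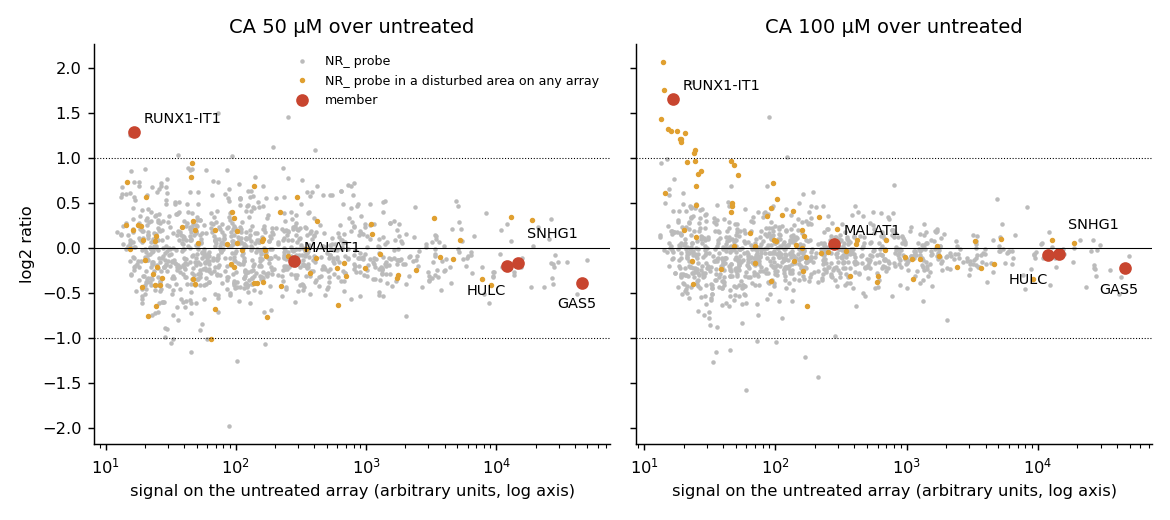
Log2 ratio over untreated cells against the untreated signal (arbitrary units, log axis) for NR_ probes at CA 50 μM (left) and CA 100 μM (right). Red points are the 5 members compared, orange points spots in a disturbed area on any array, and dotted lines 2-fold; most high points at CA 100 μM are orange and dim, RUNX1-IT1 (1.65) is neither in such an area nor bright.

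Since RUNX1-IT1 was selected on its rise, nothing is read from its rank or from its place in the counts that follow. Among lncRNA probes, the ratio of RUNX1-IT1 was the highest of 536 at CA 50 μM and the second of 528 at CA 100 μM. The one above it, CASC2, read 14.2, 19.3 and 56.3, and its CA 100 μM spot lay in a disturbed area. At CA 50 μM, FAM215A came next at 1.25 ± 0.32, beside 1.28 ± 0.32 for RUNX1-IT1, a gap within the errors. CASC2 and FAM215A were named after their values were seen. Of 806 noncoding genes well above background on all 3 arrays, 1, RUNX1-IT1, reached 2-fold upwards under each dose and 2 did so downwards. CEROX1, an RNA described as raising complex I of the respiratory chain, read 44.9, 23.0 and 24.0, at -1.16 ± 0.28 and -1.14. LOC284379 read 168, 90.8 and 85.4, at -1.07 and -1.21. Over all 14546 genes, 3 reached 2-fold upwards under each dose and 17 downwards.

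Around the 2-fold limit, the smaller of both log2 ratios was 1.042 for CALHM1 and 1.001 for RAB4B, just inside, and 0.999 for MARCHF2 and 0.973 for TAGLN3, just outside. The limit therefore separates genes that differ by less than their errors. Of the 14545 other genes well above background throughout, the 5 nearest to RUNX1-IT1 by Euclidean distance over the 2 log2 ratios were TAGLN3 (0.48), CDKN2B (0.51), CALHM1 (0.62), SLC39A3 (0.65) and RAB4B (0.67). The likeness rests on 3 arrays and on a shared untreated array. CDKN2B, an inhibitor of the kinases CDK4 and CDK6, had the second smallest distance. The CA 100 μM spots of CDKN2B and SLC39A3 lay in a disturbed area, whose part was not tested.

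As to the arrays, 70.4% to 71.1% of gene spots were well above background, and the disturbed areas held 0.139% of spots on the untreated array, 0.0881% at CA 50 μM and 5.71% at CA 100 μM. All 18 hepatocyte markers, such as ALB and AFP, were well above background on at least 1 array, and 16 could be compared. HNF4A read 9.37, 21.8 and 15.5 and passed only at CA 50 μM. TF passed only at CA 100 μM, as its spots on the other arrays carried outlier flags. Of 15 markers of other cells, 11 were well above background on at least 1 array. KRT14, a basal keratin, was the only marker compared that changed by 2-fold, at 306, 99.1 and 765.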

How the data were processed

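The authors hybridised Cy3-labelled RNA of 3 groups of Huh7 cells (1 array each) to a human Agilent array and processed the scans with Feature Extraction 11.0.1.1. The deposited intensity values, in arbitrary units, are background-subtracted processed signals, not scaled between arrays. The authors also deposited a log2 table per probe, whose method is not given in the sources used here and which correlated with log2 processed signal at 0.99996 or more; it served as an alternative. Its columns share a median of 6.22, and its centring is unknown.

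Signals were taken as log2 minus each array's 75th percentile, without control spots or spots with outlier flags (429, 569 and 596). Spots of one probe were averaged. A probe counted as detected (well above background) with 50% or more of its spots detected, and ratios needed this on both arrays. A bound set the bright value against the lowest signal well above background, or the dim value where higher, and did not count the scanner's error. A gene with several probes was read by its brightest in lists. RefSeq accessions named 25771 of 34127 probes (75.5%), through a table of GRCh38.p14; the files hold no probe sequences that were used here. Members and lists were chosen with earlier results of these data known. Genes named were the members, their neighbours, the brightest of each list, all -IT transcripts, noncoding genes past 2-fold at both doses and the 5 genes nearest to RUNX1-IT1. SNHG3, SNHG7, DANCR, MIRLET7BHG, E2F1, XPO5, NORAD, CASC2 and FAM215A were named after their values were seen. Some items are not reported here. Disturbed areas were windows of 17 rows by 7 columns with at least 5 dim spots, and 25% of them, at least 4-fold brighter on 1 array. With 1 array per group, the number of arrays limits the precision and no p-value is given. R 4.3.3 with limma 3.58.1 and Python 3.11.15 were used. The count of changed probes was tested on simulated data with 4-fold changes in probes brighter than RUNX1-IT1. Dim probes and changes near 2-fold were not tested in this way. Alternatives were other scalings, background corrections, filters and probe rules.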

Additional observations from a re-analysis of the deposited data

How the results depend on the processing

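There were 14 alternatives, 2 of them (normexp without an offset, and the processed signal plus 50) added after seeing the data. Normexp replaced the processed signal by median spot and background signals and added an offset of 50, so that it changed more than 1 choice. The log2 ratio of RUNX1-IT1 moved by less than the scanner's error in 11 of 14 at each dose. Its probe has 1 spot, without flags and well above background on every array. The alternative filters, spot exclusions and probe rules could therefore hardly move it, and the count of 11 is not read as stability. With rising dose the ratio was 0.24 and 0.40 with normexp, and 0.71 and 1.03 with normexp without offset. With the processed signal plus 50 it was 0.35 and 0.51, so that the offset and the change of signal each lowered it. The count of members past 2-fold was 0 instead of 1 at both doses with normexp and with the signal plus 50, and 0 at CA 50 μM with normexp without offset. Without the filter on dim spots it was 2 at CA 100 μM over untreated and 1 at CA 100 μM over CA 50 μM, as H19 then counted, at -1.21 and -1.51. With normexp, NR_ probes at least 2-fold higher and lower numbered 1 and 0 at CA 50 μM over untreated, 0 and 2 at CA 100 μM over untreated, and 1 and 1 at CA 100 μM over CA 50 μM, where the main counts were 8 and 8, 16 and 8, and 14 and 5. In the same order, they were 2 and 3, 4 and 4, and 7 and 3 with normexp without offset, and 3 and 1, 1 and 1, and 1 and 3 with the signal plus 50. Without the filter these numbers were 94 and 95, 111 and 113, and 101 and 110. Without disturbed areas, the higher counts were 4 at CA 100 μM over untreated and 1 at CA 100 μM over CA 50 μM. Ratios of MALAT1, GAS5, SNHG1 and HULC moved by less than the scanner's error throughout, and MALAT1 could not be compared at CA 100 μM without disturbed areas. Each of these was also read from 1 spot, so that several filters could hardly move it. No paired analysis was possible because each group has 1 array, and for the same reason no replicate could be left out. Slide and scan were not tested as batches. Signals under about 50 units set the limit for RUNX1-IT1, MIR17HG and H19.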
